A study of Mus musculus with 4 samples.

Results

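To find out where the genes of the RUNX transcription factors were open in salivary gland organoids, the open regions in and around Runx1, Runx2, Runx3 and Cbfb were examined. These 4 genes were taken by name from the 21440 protein-coding genes of a RefSeq table of GRCm38.p6 that could be given a strand. They held 26 of the 32011 distinct regions of the deposited list. The list came from bulk ATAC-seq, which marks DNA that the Tn5 transposase can reach, of 4 samples of mouse salivary gland organoids (mSGOs). The mSGOs were grown from submandibular glands of C57BL/6 mice and were not irradiated. Passage 1 and passage 2 had 2 samples each, and within each passage the labels name 1 mouse of 12 weeks and 1 of 3 months. Per the study, the organoids came from 4 different mice, all female, and were 7-day mSGOs. All samples shared Matrigel and a medium with EGF, FGF2, insulin, dexamethasone, the ROCK inhibitor Y27632, and medium conditioned by cells that make R-spondin1 and Wnt3a. Such organoids hold epithelium without the vessels, nerves and blood cells of the gland. The list has no value of its own for any sample, so neither depth, replicate spread nor a comparison of passages can be given. The labelled ages are nearly the same, and they cannot be compared either. Values below describe the list as a whole.

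RUNX proteins bind DNA through the Runt domain as a heterodimer with CBFβ, the product of Cbfb, which does not contact DNA itself but strengthens binding. RUNX1 is required for blood stem cells and is also present in epithelial progenitors such as those of the hair follicle, RUNX2 drives bone formation, and RUNX3 acts in T cells and sensory neurons. Each RUNX gene is known to be transcribed from a distal promoter and from an internal, proximal promoter, which give proteins with different first residues. The gene table gives only the outermost ends of a gene, whereas a RefSeq promoter table of the same build gives single start sites, and both were used here.

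The processing notes name GRCm39, but the regions matched GRCm38. The midpoint of a region lay within 1 kb of the outermost 5′ end of 8206 of 21440 protein-coding genes on GRCm38.p6 (38.3%, 95% Wilson interval 37.6 to 38.9), and of 1096 of 21757 on GRCm39 (5.04%). Coordinates are therefore given as GRCm38. For each region the list gives a fold, the signal at the strongest summit over the local background, and an irreproducible discovery rate (IDR) score of at most 1000, where a higher score means better agreement between the sets compared. The median fold over all regions was 7.11 (quartiles 5.70 and 9.32). As a check of the cell type, 7 of 9 markers of salivary gland epithelium had a region within 1 kb of the 5′ end, namely Krt14, Krt5, Krt8, Sox9, Itgb1, Cd44 and Epcam. Krt7 had none there or within the gene, and Trp63 had none there but held 7 regions. Of markers of other cells, 1 of 7 for blood cells (Cd68), 0 of 6 for endothelium and 0 of 6 for fibroblasts and bone had a region at the 5′ end. The lists differed less in regions within the gene, which 4 of 9 epithelial markers (44.4%) held, beside 39.5% of all protein-coding genes. For endothelium 2 of 6 held some (33.3%), namely Pecam1 with 3 and Tek with 1, for fibroblasts and bone 1 of 6 did (Pdgfra), and for blood cells 0 of 7.

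A region lay at the outermost 5′ end of Cbfb and of none of the 3 RUNX genes, so that 1 of 4 genes had one beside 38.3% of all protein-coding genes. The promoter table held both a distal and an internal start for Runx1 and Runx3. At Runx1 the distal start had no region and the internal start had one, while at Runx3 both starts were without a region. Over all 21263 starts of protein-coding genes in that table, 40.2% had a region midpoint within 1 kb. Among 683 genes with a start at the outermost end and another over 10 kb downstream, 102 (14.9%) had a region at an internal start only, as Runx1 did. Another 193 (28.3%) had one at the outermost start only, 71 (10.4%) at both and 317 (46.4%) at neither, as Runx3 did.

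The sequences before these starts are shown for their CpG content, which was low at the Runx1 distal start and high at the other 3, of which the Runx3 internal start had no region. Each holds the 250 bases before the start, from RefSeq on GRCm38.p6, written in the direction of transcription, with each CG dinucleotide in capitals. The first has no region, the second lies wholly inside a region, the third has none and the fourth lies wholly inside a region.
Runx1 distal start, chr16:92826075-92826324, minus strand: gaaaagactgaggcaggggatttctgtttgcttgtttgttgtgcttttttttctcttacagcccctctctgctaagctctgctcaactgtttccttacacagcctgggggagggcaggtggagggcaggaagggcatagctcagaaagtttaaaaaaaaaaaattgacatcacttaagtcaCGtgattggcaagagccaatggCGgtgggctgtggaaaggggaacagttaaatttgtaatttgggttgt
Runx1 internal start, chr16:92697330-92697579, minus strand: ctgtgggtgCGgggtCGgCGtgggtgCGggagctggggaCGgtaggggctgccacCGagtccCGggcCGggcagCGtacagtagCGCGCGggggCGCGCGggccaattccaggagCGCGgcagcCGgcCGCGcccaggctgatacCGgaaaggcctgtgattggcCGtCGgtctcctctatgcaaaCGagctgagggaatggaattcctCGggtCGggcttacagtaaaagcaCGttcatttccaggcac
Runx3 internal start, chr4:135152295-135152544, plus strand: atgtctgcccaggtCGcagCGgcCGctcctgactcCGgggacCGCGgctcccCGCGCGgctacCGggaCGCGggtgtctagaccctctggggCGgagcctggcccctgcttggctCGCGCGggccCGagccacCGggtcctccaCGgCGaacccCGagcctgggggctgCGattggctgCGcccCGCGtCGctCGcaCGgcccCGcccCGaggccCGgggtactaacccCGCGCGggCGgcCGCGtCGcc
Cbfb start, chr8:105170424-105170673, plus strand: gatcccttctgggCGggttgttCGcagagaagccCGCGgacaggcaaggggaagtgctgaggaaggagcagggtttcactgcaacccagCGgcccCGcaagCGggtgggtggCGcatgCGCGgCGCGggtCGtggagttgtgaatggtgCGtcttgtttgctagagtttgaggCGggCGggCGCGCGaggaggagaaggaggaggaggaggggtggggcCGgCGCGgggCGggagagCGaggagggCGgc

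Counted over these letters, CG occurred 2 times before the Runx1 distal start, 27 times before its internal start, 38 times before the Runx3 internal start and 25 times before the Cbfb start. The ratio of observed to expected CpG, taken over 300 bases from 250 before to 50 after a start, was low at the distal RUNX starts and high at the others. The ratio was 0.137 at the distal start of Runx1, 0.143 at that of Runx2 and 0.264 at that of Runx3. It was 1.01 at the internal start of Runx1, 1.01 at that of Runx3 and 0.987 at the outermost start of Cbfb, the only start listed for that gene. No distal RUNX start, all of them poor in CpG, had a region, and of the 3 CpG-rich starts those of Runx1 and Cbfb had one. Over all starts of the table, 6783 of 10137 (66.9%, 95% Wilson interval 66.0 to 67.8) with a ratio of at least 0.6 had a region, and 1769 of 11126 (15.9%, 15.2 to 16.6) with a lower ratio.

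**Figure D1:**
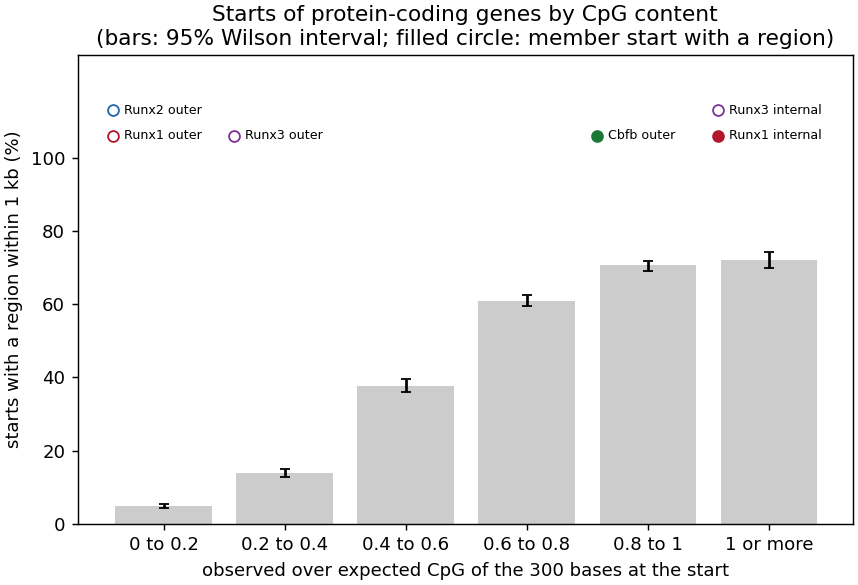
Bars give the share of starts of protein-coding genes (percent) with a region midpoint within 1 kb, by observed over expected CpG of the 300 bases at the start, with 95% Wilson intervals. Circles name the 6 member starts in their class, filled where a region was present: only the internal start of Runx1 and the start of Cbfb, both CpG-rich, are filled.

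The distal starts of the RUNX genes shared a stretch of letters that was not found at the internal starts of Runx1 and Runx3, while no internal start of Runx2 was searched. The longest run common to the 3 distal windows was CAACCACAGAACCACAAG, of 18 bases, which holds ACCACA, the letters of the RUNX motif TGTGGT on the other strand, 2 times. It is shown for its letters. No other start of the table's 21263 had it on either strand, but this carries no weight. The run was picked from these same 3 windows, and its length alone makes a further match unlikely. Below are 29 bases around it from RefSeq on GRCm38.p6, with ACCACA in capitals.
Runx1 distal start, chr16:92826026-92826054, minus strand: cataaacaACCACAgaACCACAagttggg
Runx2 distal start, chr17:44814584-44814612, minus strand: cacaaacaACCACAgaACCACAagtgcgg
Runx3 distal start, chr4:135120503-135120531, plus strand: gtccctcaACCACAgaACCACAaggccag

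The run began 26 bases after the distal start of Runx1, 21 bases after that of Runx2 and 136 bases before that of Runx3. TGTGGT on either strand occurred 2 times in the 300 bases at the distal start of Runx1, 3 times at that of Runx2 and 2 times at that of Runx3, and 0 times at the internal starts of Runx1 and Runx3 and at the start of Cbfb. The shared run accounts for 2 of these matches at each distal start, so the counts there are not separate from it. Of all starts in the table, 15.0% held TGTGGT at least 1 time and 1.5% at least 2 times. TGCGGT, the other form searched, occurred 1 time at the Runx2 distal start and at no other start of the 4 genes, beside 7.44% of all starts. These matches describe letters and not bound sites.

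**Figure D2:**
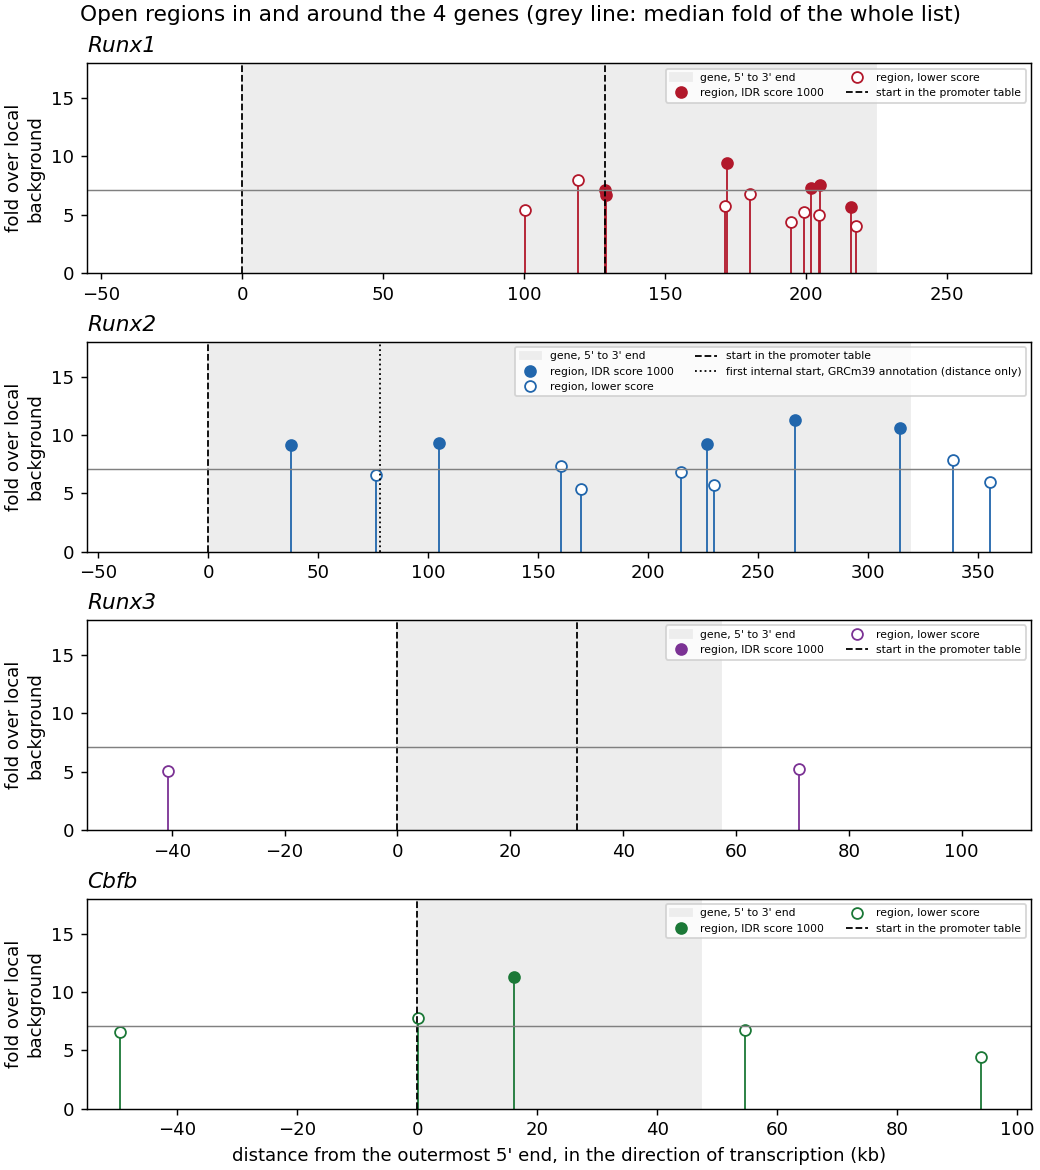
Each stem is an open region at its distance (kb) from the outermost 5′ end of the gene, with the fold over the local background as its height. Filled heads have an IDR score of 1000, grey boxes span the gene, and lines mark annotated starts. Runx1 and Runx2 hold 14 and 10 regions, Cbfb has a region at its start, and the box of Runx3 is empty.

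Runx1, on the minus strand of chromosome 16, held 14 regions in 225 kb, which is 6.23 per 100 kb beside 1.59 per 100 kb over all protein-coding genes. Some region lay within 39.5% of all protein-coding genes. Among the 200 genes closest to Runx1 in length (208 to 243 kb), the median was 2 regions and the highest 16; 197 genes held fewer than Runx1, 1 as many and 2 more. The regions of Runx1 were not spread evenly. None lay in the first 100 kb of the gene, and 2 lay further on but over 1 kb before the internal start. Within 1 kb of that start lay 2, and the other 10 lay between 171 and 218 kb from the 5′ end.

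The internal start of Runx1, 129 kb from the 5′ end, lay inside the region at chr16:92697181-92697604. This region reached from 275 bases before the start to 148 bases after it, and its strongest summit lay 67 bases before the start. Its fold was 7.16 and its IDR score 1000. A fold of this size is ordinary for a promoter, since the 7654 regions within 1 kb of a start in the table had a median of 7.86 (quartiles 6.05 and 10.5). A second region, at chr16:92696692-92697005, followed after 0.175 kb with a fold of 6.71 and an IDR score of 1000.

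Upstream of the internal start, a region at chr16:92706410-92706982, 119 kb from the 5′ end, had a fold of 7.99, and the region nearest to the 5′ end within the gene, at chr16:92725437-92725719, had a fold of 5.40 and the low IDR score of 619. Beyond these, no region was listed for 178 kb across the distal start of Runx1. The nearest midpoint on any side lay 77.9 kb upstream of that start. Of the 13234 protein-coding genes without a region at the 5′ end, 32.6% had their nearest midpoint farther away, and the median was 34.8 kb.

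The highest fold within Runx1 was 9.41, at chr16:92653873-92654157, 172 kb from the 5′ end and 52.5 kb before the 3′ end. It was at percentile 75.6 of all regions by fold. Beside it, after 0.446 kb, lay a region with a fold of 5.75, and a single region with a fold of 6.79 followed at 180 kb. In a stretch from 195 to 205 kb, 5 regions followed each other, with folds of 4.40, 5.22, 7.30, 4.96 and 7.53 in the direction of transcription. The last 2 regions of the gene, 8.36 and 6.78 kb before the 3′ end, had folds of 5.68 and 4.06. In all, 5 of the 14 regions lay above the list's median fold, and 6 had an IDR score of 1000.

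Upstream of Runx1, 757 kb hold no protein-coding gene up to Setd4, a gene for a lysine methyltransferase. This stretch held 19 regions (2.51 per 100 kb), beside 0.510 per 100 kb over all 1680 stretches of at least 200 kb between protein-coding genes. Of these, 13 lay nearest to the 5′ end of Runx1, from 77.9 to 357 kb upstream, with folds from 4.75 to 9.89 and a median of 6.70. The nearest, at chr16:92903473-92904456, was 984 bp wide with 5 summits and a fold of 9.69, and the strongest, at chr16:93013352-93013851, 188 kb upstream, had a fold of 9.89. Together with 4 regions within the gene, 100 to 129 kb from its 5′ end, 17 regions were nearest to the Runx1 5′ end. That number was exceeded by 36 protein-coding genes. It includes the 2 regions within 1 kb of the internal start, since only regions near outermost 5′ ends were left out. None of the 17 was nearest to Runx1 once noncoding genes were allowed to compete, and nearness does not show which gene a region acts on.

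**Figure D3:**
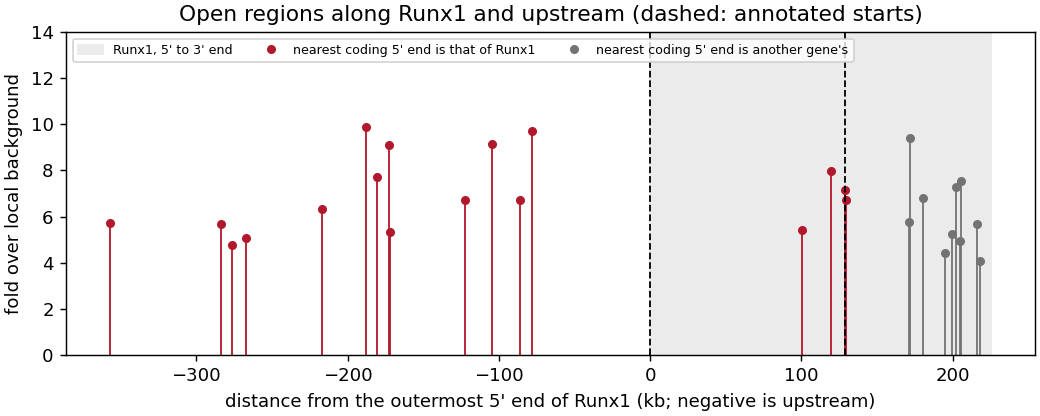
Open regions along Runx1 and the stretch upstream, by distance (kb) from the outermost 5′ end, with the fold over the local background as height. Red regions are nearest to the Runx1 5′ end and grey ones to that of another gene. A stretch of 178 kb around the distal start holds none, and regions gather at the internal start and toward the 3′ end.

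Runx2, on the minus strand of chromosome 17, held 10 regions in 319 kb, or 3.14 per 100 kb. Among the 200 genes closest in length (280 to 362 kb), 178 held fewer, 3 as many and 19 more, with a median of 2. The count of 10 includes a region at the start of another gene, Supt3, and 5 beyond the end of most Runx2 transcripts, as described below. Folds within Runx2 ran from 5.40 to 11.3, with 6 of 10 above the list's median. Neither the distal start nor the 37 kb that followed it held a region.

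The region of Runx2 nearest to the distal 5′ end, at chr17:44776845-44777272 with a fold of 9.14, lay at the start of another gene. Supt3, which encodes a subunit of the SAGA coactivator complex, begins inside Runx2 on the opposite strand, and its 5′ end was 60 bases from the middle of this region. For that reason all 10 regions within Runx2 were nearest to the 5′ end of Supt3 and 0 to that of Runx2. With Supt3 left out, a choice made after the data were examined, 10 regions were nearest to Runx2.

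The promoter table lists no internal start of Runx2, so its place was taken from the GRCm39 annotation as a distance only. The length of Runx2 was the same in both annotations, 318811 bp, which was not so for the other 3 genes. Of 14 annotated Runx2 transcripts, 6 began between 78.1 and 80.1 kb from the 5′ end. A region at chr17:44737970-44738589, with 3 summits, a fold of 6.57 and an IDR score of 710, ended 1.32 kb before the first of these starts. It was the region nearest to them, outside the distance of 1 kb used for the other starts.

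Beyond the internal starts, a region at chr17:44709901-44710252, 105 kb from the 5′ end, had a fold of 9.28 and an IDR score of 1000. Those at 160 and 169 kb had folds of 7.33 and 5.40, and 3 regions between 215 and 230 kb had folds of 6.87, 9.22 and 5.70. The strongest regions lay far downstream, at chr17:44547863-44548420 (fold 11.3, 267 kb) and at chr17:44500233-44500821 (fold 10.6, 314 kb), at percentiles 86.9 and 83.8 of all regions. These belong to a part of the gene that few annotated transcripts reach, since 12 of 14 ended within 211 kb of the 5′ end. Only 5 of the 10 regions lay before that point, and the comparison with genes of similar length was not redone for the shorter gene.

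Runx3, on the plus strand of chromosome 4, held 0 regions in 57.3 kb. Of the 200 genes closest in length (56.1 to 58.6 kb), 79 (39.5%) also held none, and the median was 1. The nearest regions lay 40.7 kb upstream of the distal start, at chr4:135079715-135080145, and 13.8 kb beyond the 3′ end, at chr4:135191593-135192045. Both were weak, with folds of 5.07 and 5.23 and IDR scores of 754 and 621, and 111 kb between them held no region. The absence of a region from this list does not show that Runx3 was closed in every cell, since the depth of the samples is not known.

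Cbfb, on the plus strand of chromosome 8, held 2 regions in 47.3 kb, beside a median of 1 in the 200 genes closest in length, of which 157 held fewer and 16 more. The region at its start, chr8:105170414-105171105, was 692 bp wide with 5 summits and a fold of 7.79, and its strongest summit lay 71 bases before the start. When regions were placed by strongest summit, this one fell outside the gene, and Cbfb held 1 region, equal to the median. The IDR score of the start region was 891, so that Cbfb no longer had a region at its 5′ end when a score of 1000 was required. The second region, at chr8:105186532-105186971, lay 16.1 kb into the gene and was stronger, with a fold of 11.3 (percentile 87.1) and an IDR score of 1000. It was the only region nearest to the Cbfb 5′ end and over 1 kb from it.

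**Figure D4:**
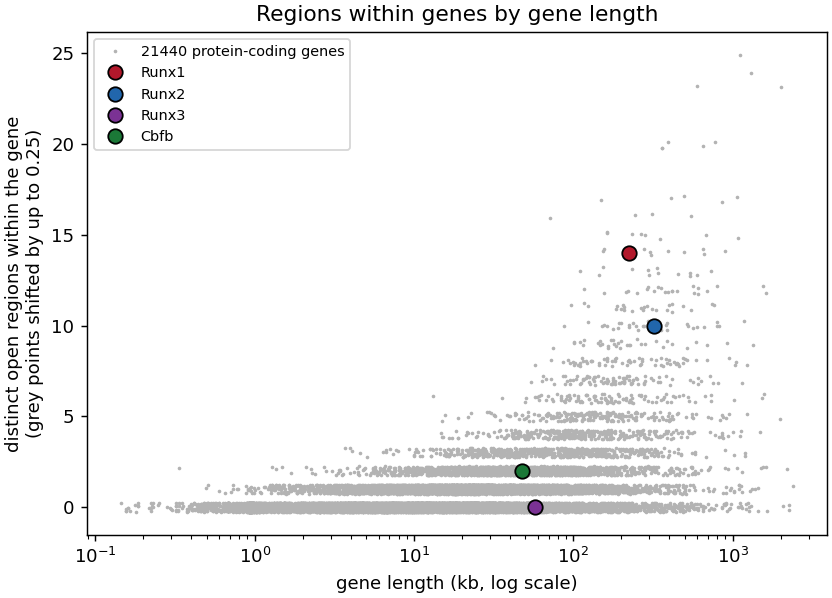
Each point is a protein-coding gene, by its length (kb, log scale) and the number of distinct open regions within it. Runx1 (14 regions) and Runx2 (10 regions) lie high among genes of their length, and Runx3 (0 regions) lies at the base. For Runx2, 5 of the regions lie beyond the 3′ end of most annotated transcripts. Cbfb (2 regions) lies above the median of 1 for its length, but holds 1 when regions are placed by strongest summit.

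Genes of the wider RUNX pathway were then counted by role, beside the 38.3% of all protein-coding genes with a region at the 5′ end. Among corepressors, 7 of 11 had one, including Tle1, Tle3 and Tle4 of the Groucho family, which bind the C-terminal end of RUNX proteins, and Hdac1 and Hdac3. Tle2, Sin3a, Cbfa2t3 and Runx1t1, the last of which is fused to RUNX1 in leukaemia, had none there, although Sin3a had one at another start and held 2 regions. Among coactivators, 5 of 6 had one, among them the acetyltransferase genes Ep300, Crebbp and Kat6a. Kat6b had none at its outermost 5′ end but one at another start, and held 9 regions.

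Of factors that act with RUNX proteins on shared sites or pathways, 7 of 10 were open at the 5′ end. They were Smad1 and Smad5, the YAP pathway genes Yap1 and Wwtr1, the AP-1 genes Fos and Jun, and Cebpa. Ets1, whose product binds DNA together with RUNX1, had none at the 5′ end but held 7 regions, as Runx1 and Runx2 held regions without one at the distal start. Smad3 had none at the 5′ end either but held 3 regions, and Myb had none at either place. All 5 genes listed under RUNX turnover were open at the 5′ end. They were the ubiquitin ligase genes Smurf1, Smurf2, Wwp1 and Stub1 and the kinase gene Hipk2, whose part in turnover was not examined here. Counted within the gene, the lists were closer to the 39.5% of all protein-coding genes, apart from the factors that act with RUNX proteins. A region was held by 6 of 11 corepressors (54.5%) and 2 of 6 coactivators (33.3%). The same was so for 7 of 10 factors that act with RUNX proteins (70%) and 2 of 5 turnover genes (40%).

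Known targets of RUNX proteins in bone and blood mostly had no region at the 5′ end, where 38.3% of all protein-coding genes had one. Of 7 bone targets of RUNX2, 0 had one at the 5′ end, including Bglap (osteocalcin), Spp1 (osteopontin), Ibsp, Col10a1 and Mmp13, and Sp7 alone held a region, 1 within the gene. Of 9 blood targets, only Zbtb7b had one there (1 gene), and Csf1r, Mpo, Cd4, Cd8a and Itgal had none at the 5′ end or within the gene. Counted within the gene, 1 of 7 bone targets (14.3%) and 3 of 9 blood targets (33.3%) held a region, beside 39.5% of all protein-coding genes. The blood targets were Itgae with 2 regions, Spi1 with 1 and Zbtb7b with 1. Such counts describe chosen genes and were not tested against other genes.

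**Figure D5:**
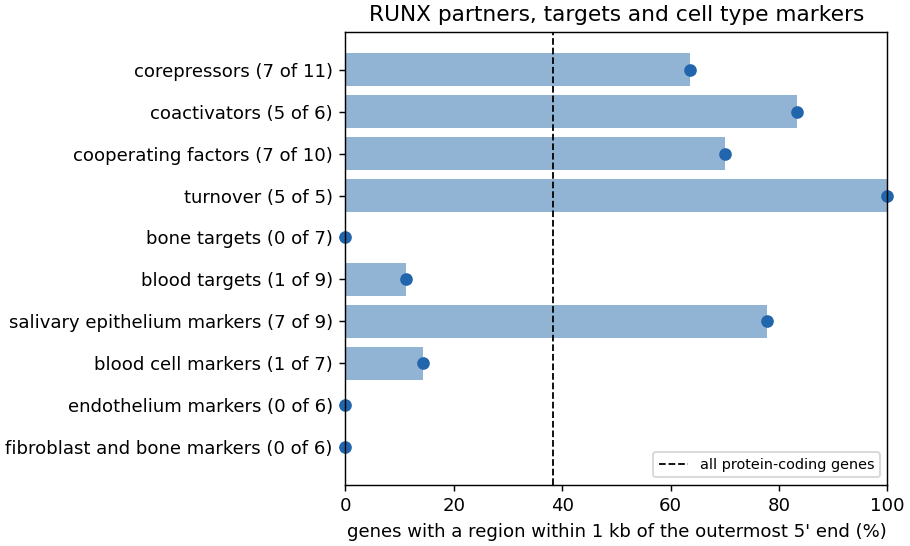
Bars give the share of genes in each list (percent) with a region midpoint within 1 kb of the outermost 5′ end, with counts beside the names; the dashed line is the share of all protein-coding genes, 38.3%. Lists of RUNX partners and of epithelial markers lie above the line, and lists of bone and blood targets and of markers of other cells lie below it. Shares within the gene, not drawn here, differed: for coactivators the share was 33.3%, beside 39.5% of all protein-coding genes.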

How the data were processed

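Bulk ATAC-seq reads of 4 organoid samples were aligned and peaks called by the authors with the ENCODE ATAC-seq pipeline, with all samples entering a consensus file. Pipeline version, filters and the relation of the deposited list to that file are not given in the sources used here. Per the labels, the submitters' processing notes name HOMER and GRCm39. The deposited list has 69545 lines, 1 for each summit. For each, the authors' caller gave an IDR score, a fold (ratio) against the local background, and q- and p-values on the −log10 scale, of which only the q-value was used. There are no values by sample, so depth and precision are unknown.

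Lines with the same ends were joined into 32011 regions, each represented by the summit with the lowest q-value, and placed by midpoint. Gene ends came from a RefSeq table of GRCm38.p6. Strand came from the RefSeq promoter table for 17492 protein-coding genes and from GENCODE vM39, by name and chromosome, for 3948; where both gave a strand, they were the same for 15617 of 15718 genes. All starts of the promoter table with their sequences, and GRCm39 distances within Runx2, were used as well. Regions more than 1 kb away from every 5′ end of a protein-coding gene were given to the gene whose 5′ end was closest. No test was run, since 1 list has no replicates. Shares over all genes or starts have 95% Wilson intervals, which cover counting error only.

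The members and lists were chosen with earlier results of these data known, and the use of internal starts of the promoter table, the CpG limit of 0.6 and the shared letters were chosen after the data were examined. Named genes are the 4 members, their neighbours and the genes of the lists; named regions are those nearest to a 5′ end, the strongest, and those within a member. Protein sequences and motifs within regions were not analysed here. Counting and assignment were tested on simulated data. Scripts ran in Python 3.11.15 with pandas 2.3.3 and numpy 2.4.6; scipy 1.17.1 gave the intervals and matplotlib 3.10.9 the plots.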

Additional observations from a re-analysis of the deposited data

How the results depend on the processing

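Alternatives left Runx1, Runx2 and Runx3 without a region at the outermost 5′ end at distances of 500 bp, 1 kb and 2 kb, and Runx3 held 0 regions under every alternative for regions within genes, 5 kb on either side included. The 26 regions within the 4 genes became 14 among the 16006 regions with the lowest q-values, 12 at an IDR score of 1000, and 55 by lines. The 20 regions nearest to a member 5′ end became 9, 8 and 43 in the same order, and 1 with genes of every type competing. The sets hold fewer regions or more lines by construction, and more genes compete in the last case. With Runx2 ended 211 kb from its 5′ end, a choice made after the data were examined, its 10 regions became 5 and the 26 became 21. Placed by strongest summit, the 26 became 25, with 1 region in Cbfb. The 1 member with a region at the 5′ end became 0 at a score of 1000, and 2 with any start of the promoter table, a choice made after the data were examined. The share of all protein-coding genes open at the 5′ end, 38.3%, became 25.9% with those 16006 regions, 24.0% at a score of 1000, 35.4% within 500 bp, 41.4% within 2 kb, 39.1% by any overlap and 22.5% for genes of every type. Of the values for single genes, 23 moved by over 1.5 times and 65 did not. Many of the 65 were counts of 0 that stayed 0, and stricter sets or counting by lines cannot raise a 0. No alternative without a sample could be run, and no paired analysis was possible, because the single list has no values by sample.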

Other observations

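Each RUNX gene had a gene for a chloride intracellular channel protein (Clic) and one for a regulator of calcineurin (Rcan) on the same chromosome, genes that were singled out after the neighbours had been seen. Clic6 and Rcan1 lay 60.2 and 135 kb from Runx1, Clic5 and Rcan2 lay 216 and 456 kb from Runx2, and Clic4 and Rcan3 lay 36.0 and 234 kb from Runx3. A region lay at the 5′ end of Rcan1, which held 5 regions, and of Clic4, and at none of the other 4 genes. Among all protein-coding genes the share was 38.3%, so this count is not read as a feature of the RUNX genes. The 10 regions in the last part of Runx1 were nearest to the 5′ end of Clic6, which itself had no region at its 5′ end and 0 within the gene. Cbfb had no such neighbours, and lay between Ces4a, with no region at its 5′ end, and D230025D16Rik, with one.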
